A study of Mus musculus with 6 samples.

Results

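Squamous differentiation and cornified envelope genes were described in cultured mouse mammary luminal cells kept with or without EFNA3 protein. The set was a list of 10 gene symbols: Ivl, Sprr1a, Sprr1b, Sbsn, Krtdap, Tgm1, Tgm3, Dsg1a, Dsc1 and Tmprss11e. They were chosen by name, with earlier results of these data known. Rows for 9 of the 10 were used, among 19739 genes in the deposited table, and the expression of Krtdap was not analysed here. Of these, 7 passed the filter on low values, which asked for a log2 value of at least 3.32 in at least 3 of 6 libraries, among 16394 genes that passed. Sprr1b and Tgm3 stayed under it in all 6 libraries.

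RNA was sequenced from wild-type mammary epithelial cells sorted by flow cytometry as luminal. The growth medium held 5% FBS, 10 ng/ml of the growth factor EGF, 20 ng/ml of FGF2, 4 µg/ml of heparin and 5 µM of the ROCK inhibitor Y-27632. All cultures went without serum for 12 hours. The control group (3 libraries) then had 0 µg/ml and the EFNA3 group (3 libraries) 1 µg/ml EFNA3 protein for 24 hours in medium without serum. EFNA3, or ephrin-A3, is normally held on the cell surface, where it binds EphA receptors of neighbouring cells. The labels give neither the age or number of the mice nor whether replicates were separate animals or cultures, so the tests measure the spread between these libraries, which may be technical.

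The cornified envelope is the protein shell that replaces the plasma membrane of a dying keratinocyte in stratified squamous epithelium. Transglutaminases cross-link precursor proteins such as involucrin and the small proline-rich proteins onto a scaffold anchored at desmosomes. Normal mammary epithelium is glandular and makes no cornified layer, while squamous differentiation can appear in cultured or transformed mammary cells.

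Upstream sequences are shown for 4 members of differing level. They are Sbsn and Sprr1a, the highest per transcript length, Ivl, the classical envelope precursor, and Sprr1b, a low relative of Sprr1a. Each run holds the 250 bases before the annotated start, 5′ to 3′ on the gene's strand, from RefSeq on GRCm38.p6, an earlier build than the mm39 of the deposited data. The windows were chr7:30751221-30751470 on the plus strand for Sbsn, and on the minus strand chr3:92485882-92486131 for Sprr1a, chr3:92438780-92439029 for Sprr1b and chr3:92573736-92573985 for Ivl. Capitals mark the AP-1-like letters TGANTCA, where N allows any base, and the TATA box letters TATAAA. The middle base was G in Sprr1a and C in Ivl, but A in Sbsn and Sprr1b.
Sbsn: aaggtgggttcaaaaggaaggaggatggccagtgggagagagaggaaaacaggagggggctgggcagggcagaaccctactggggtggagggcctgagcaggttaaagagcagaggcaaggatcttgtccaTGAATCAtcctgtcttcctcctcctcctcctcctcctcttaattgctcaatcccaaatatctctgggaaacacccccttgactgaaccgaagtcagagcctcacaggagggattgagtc
Sprr1a: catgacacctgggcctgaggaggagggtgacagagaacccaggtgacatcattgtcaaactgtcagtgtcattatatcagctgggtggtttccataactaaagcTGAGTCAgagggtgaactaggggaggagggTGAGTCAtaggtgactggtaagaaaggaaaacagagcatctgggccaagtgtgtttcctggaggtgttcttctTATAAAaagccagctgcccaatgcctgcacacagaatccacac
Sprr1b: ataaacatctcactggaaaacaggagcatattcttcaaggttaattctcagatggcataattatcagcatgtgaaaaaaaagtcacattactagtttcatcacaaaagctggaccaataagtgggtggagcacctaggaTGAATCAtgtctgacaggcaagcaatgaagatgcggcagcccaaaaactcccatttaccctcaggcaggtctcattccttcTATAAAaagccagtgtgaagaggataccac
Ivl: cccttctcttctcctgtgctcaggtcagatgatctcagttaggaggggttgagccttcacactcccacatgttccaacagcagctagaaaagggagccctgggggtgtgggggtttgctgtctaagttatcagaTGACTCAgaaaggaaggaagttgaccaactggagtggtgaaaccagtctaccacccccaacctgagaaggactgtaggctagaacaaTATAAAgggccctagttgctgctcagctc
In Sprr1a, TGANTCA began 146 and 116 bases before the start and TATAAA 43 bases before it. Ivl had TGANTCA at 116 and TATAAA at 29 bases, and Sprr1b had them at 111 and 30. Sbsn had TGANTCA at 119 bases and no TATAAA in this window. Sequence windows were used for 7 of the 10 members (8 windows). Dsg1a, Dsc1 and Tmprss11e were not searched, so the member counts cover only part of the set. TGANTCA, searched on both strands, was found for 5 of the 7 members and in 6.75% of all 32817 windows of the same 250 bases. Those 5 are the 4 shown and Krtdap, while Tgm1 and Tgm3, not shown, had none. TATAAA was also found for 5 of 7, against 12.4% of all windows. The letters AACNGGTT, bound by grainyhead-like factors, were found for 0 of 7 members and in 1.78% of all windows. CACCC, the core of KLF sites, was found for 7 of 7 and in 52.0% of all windows, and 1 of its matches in Sprr1a overlapped the TGANTCA nearer the start. These matches describe letters and were not tested as binding sites.

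Levels are given as deposited log2 values. To order genes by level, the log2 of transcript length in kilobases was subtracted, since the source names no correction for length. On that length-adjusted log2 scale the control means ran from Sbsn at 10.03, above 90.6% of genes, through Sprr1a at 8.24, Tgm1 at 6.04 and Ivl at 4.65. Tmprss11e at 3.19, Dsc1 at 2.80, Sprr1b at 2.01, Dsg1a at 1.42 and Tgm3 at 0.30 followed. The control ranges of Tmprss11e and Dsc1 overlapped, as did those of Sprr1b and Dsg1a and those of Dsg1a and Tgm3. The other neighbours in this order did not overlap in the 3 controls.

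**Figure D1:**
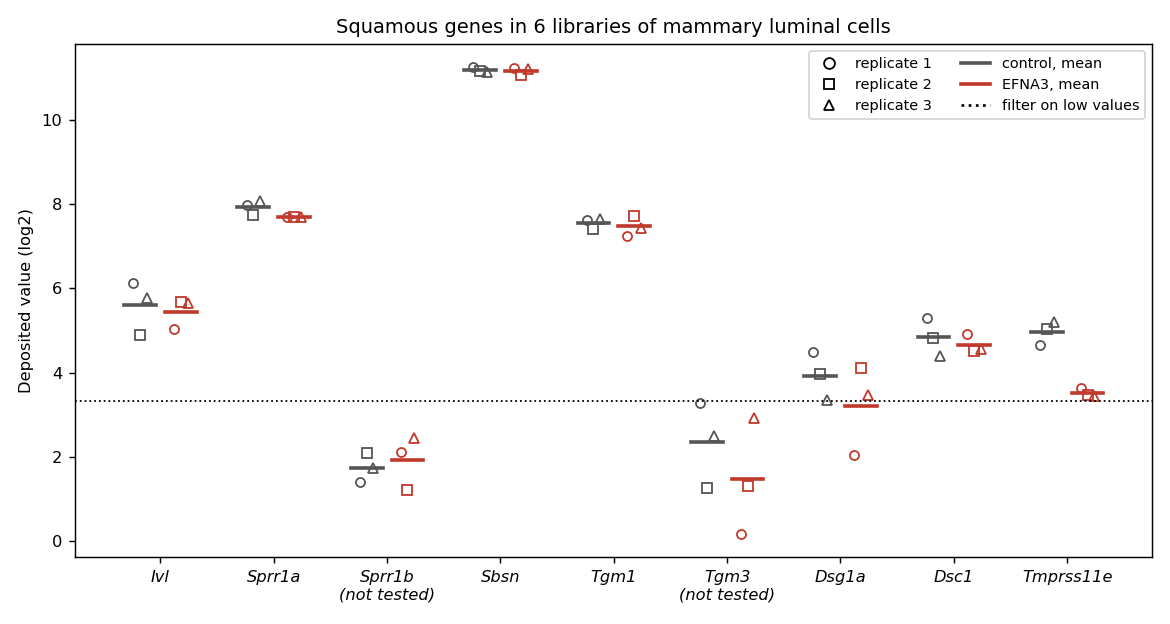
Deposited log2 value (vertical axis) of the 9 squamous genes in each library, with controls in grey, EFNA3 libraries in red, symbols for replicates, bars for group means and a dotted line at the filter of 3.32. Tmprss11e is the gene whose groups stand clearly apart, with controls from 4.66 to 5.19 and EFNA3 libraries from 3.44 to 3.64.

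The question of the comparison is what added EFNA3 protein does to expression in these cells. Tmprss11e stood 2.72-fold lower in the EFNA3 libraries, and Sprr1a 1.17-fold lower, each with no overlap between groups. The 5 other tested members overlapped between groups. No member passed the limma test adjusted over all 16394 genes at 0.05 (Benjamini-Hochberg), and no gene of the table did; 0% of tested genes were called, while 6.73% stood at an unadjusted limma p under 0.05. Among the 7 tested members 1 did, Tmprss11e. With 3 libraries per group, the smallest exact permutation p is 0.1. In bulk RNA, fewer cells that express a gene and less RNA per cell cannot be told apart.

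Among the proteases, Tmprss11e encodes a type II transmembrane serine protease also known as DESC1. Its log2 values were 4.66, 5.03 and 5.19 in control replicates 1, 2 and 3, and 3.64, 3.48 and 3.44 in EFNA3 replicates 1, 2 and 3. All 3 EFNA3 libraries lay below all 3 controls, with a gap of 1.02 between the nearest libraries. The log2 difference was -1.44 (SE 0.29, 95% interval -2.10 to -0.78), with limma p = 0.000775 before and 0.55 after adjustment, and an exact two-sided permutation p of 0.1. By unadjusted p Tmprss11e ranked 2 among 16394 tested genes, and by size it ranked 11 among the lowest differences. Differences under the alternatives ran from -1.59 to -1.14, and adjusted p from 0.33 to 0.84; without EFNA3 replicate 1 the difference was -1.50.

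Tmprss11e is a low gene here, near 31.2 in controls and 11.5 in EFNA3 libraries when the group means are taken out of the log2, so its EFNA3 values lay just above the filter. Large differences were more common among low genes: among 3866 tested genes with a control mean below 6, 1.97% were lower by 1 or more on the log2 scale, against 0.506% of all tested genes. Of those 3866 genes 5.12% lay lower with no overlap between groups, and 1.01% met both conditions, as Tmprss11e did. Of the same protease family, Tmprss11b, Tmprss11d and Tmprss11f, named after their values were seen, reached at most 1.83, 3.10 and 3.61 on the log2 scale in any library, and none passed the filter.

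**Figure D2:**
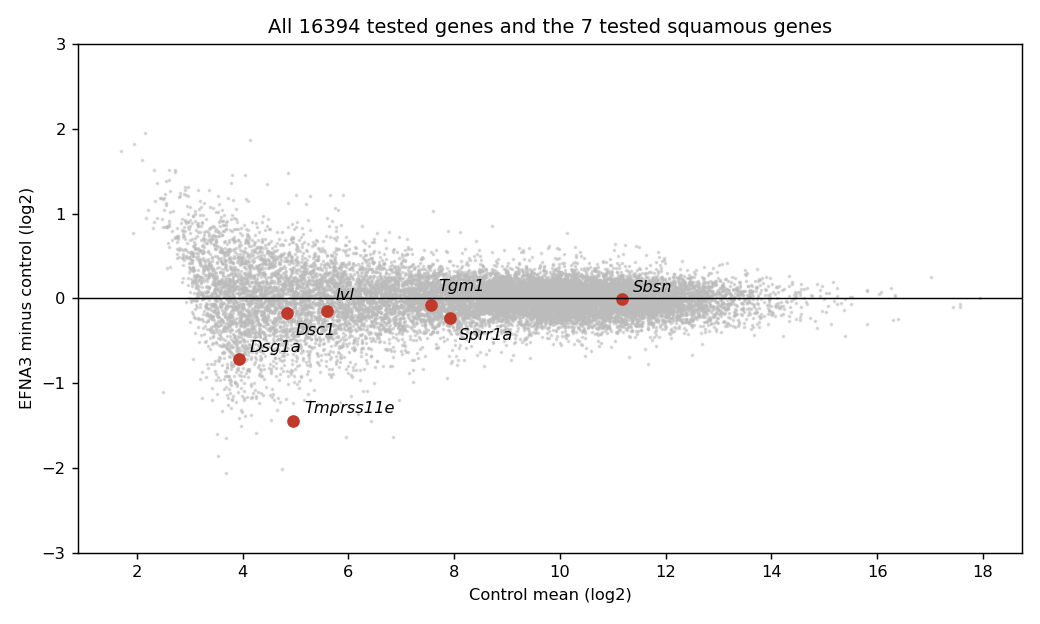
Log2 difference, EFNA3 minus control (vertical axis), against the control mean in log2 (horizontal axis) for 16394 tested genes in grey and the 7 tested squamous genes in red. Tmprss11e lies at -1.44 near the lower edge of the cloud, while the other 6 members lie within it.

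Among the envelope precursors, Sprr1a encodes a small proline-rich protein that transglutaminases cross-link into the envelope. Its log2 values were 7.97, 7.73 and 8.07 in control replicates 1, 2 and 3 and 7.70, 7.69 and 7.68 in EFNA3 replicates 1, 2 and 3. The EFNA3 libraries were nearly level with each other, within 0.020, and lay below the lowest control by 0.030. The log2 difference was -0.23 (SE 0.12, 95% interval -0.51 to 0.04; limma p = 0.090 before and 0.55 after adjustment; exact permutation p = 0.1). It was -0.38 after the correction for transcript length and GC share, which was chosen after seeing the data, and kept its direction under every alternative run. No overlap with lower values in EFNA3 held for 7.45% of all tested genes, and for 2 of the 7 tested members, Sprr1a and Tmprss11e. No overlap with higher values held for 8.53% of tested genes and for 0 of the 7.

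Sprr1b, whose gene is close in sequence family and position to Sprr1a, had a control mean of 2.01 on the length-adjusted log2 scale, against 8.24 for Sprr1a. Its deposited log2 values were 1.39, 2.08 and 1.75 in controls and 2.10, 1.22 and 2.44 in EFNA3 libraries, so the groups overlapped. It was too low to test with the filter, and reads that fit both relatives could be split between them by the counting step, of which no settings are stated.

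Ivl encodes involucrin, a glutamine-rich precursor that is cross-linked early in envelope assembly. Its controls were spread over 1.23 on the log2 scale, at 6.12, 4.89 and 5.77 in replicates 1, 2 and 3. The EFNA3 values were 5.03, 5.67 and 5.64, inside the control range. The log2 difference was -0.15 (SE 0.34, 95% interval -0.91 to 0.62; limma adjusted p = 0.87), and it moved both ways with single libraries. It was 0.12 without control replicate 1 and 0.06 without EFNA3 replicate 1, but -0.50 without control replicate 2 and -0.61 with the replicate block by description numbers.

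Sbsn encodes suprabasin, a secreted protein of differentiating suprabasal keratinocytes, and had the smallest control spread of the members. The controls read 11.25, 11.15 and 11.14 and the EFNA3 libraries 11.22, 11.07 and 11.20 on the log2 scale. The groups overlapped, and the log2 difference was -0.01 (SE 0.07, limma adjusted p = 0.95). Its 95% interval, -0.18 to 0.15, was the narrowest of the 7.

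Among the cross-linking enzymes, Tgm1 encodes the membrane-bound transglutaminase of keratinocytes. Its log2 values were 7.63, 7.40 and 7.64 in controls and 7.25, 7.72 and 7.44 in EFNA3 libraries. EFNA3 replicate 1 was the lowest library and EFNA3 replicate 2 the highest, so the groups overlapped on both sides. The log2 difference was -0.08 (SE 0.15, 95% interval -0.43 to 0.26; limma adjusted p = 0.83), or 0.03 without EFNA3 replicate 1, -0.21 without EFNA3 replicate 2 and -0.29 with the block by description numbers. Tgm3 encodes the epidermal transglutaminase that is activated by cleavage. It was scattered, with 3.27, 1.27 and 2.49 in controls and 0.17, 1.30 and 2.93 in EFNA3 libraries, and was not tested.

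The desmosomal cadherins of the upper epidermal layers, Dsg1a and Dsc1, were low in both groups. Dsg1a, which encodes a desmoglein, had log2 values of 4.48, 3.96 and 3.34 in controls and 2.05, 4.11 and 3.47 in EFNA3 libraries. EFNA3 replicate 1 was far below all others, and the remaining EFNA3 libraries lay inside the control range. The log2 difference of -0.71 (SE 0.57, 95% interval -2.0 to 0.57; limma adjusted p = 0.60) was -0.13 without that library, -0.44 without control replicate 1 and -1.17 without EFNA3 replicate 2. Its near-identical copies Dsg1b and Dsg1c, which may share reads with it and were named for that reason, differed by -0.47 (SE 0.56) and -0.13 (SE 0.36), or by 0.17 and -0.39 without EFNA3 replicate 1. Dsg1b also had its lowest value in EFNA3 replicate 1, at 2.01, whereas Dsg1c had its highest there, at 4.33.

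Dsc1 encodes a desmocollin. Its log2 values were 5.29, 4.82 and 4.40 in controls and 4.91, 4.51 and 4.56 in EFNA3 libraries, which lay inside the control range. The log2 difference was -0.17 (SE 0.30, 95% interval -0.85 to 0.50; limma adjusted p = 0.81), or 0.05 without control replicate 1 and -0.39 without control replicate 3.

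**Figure D3:**
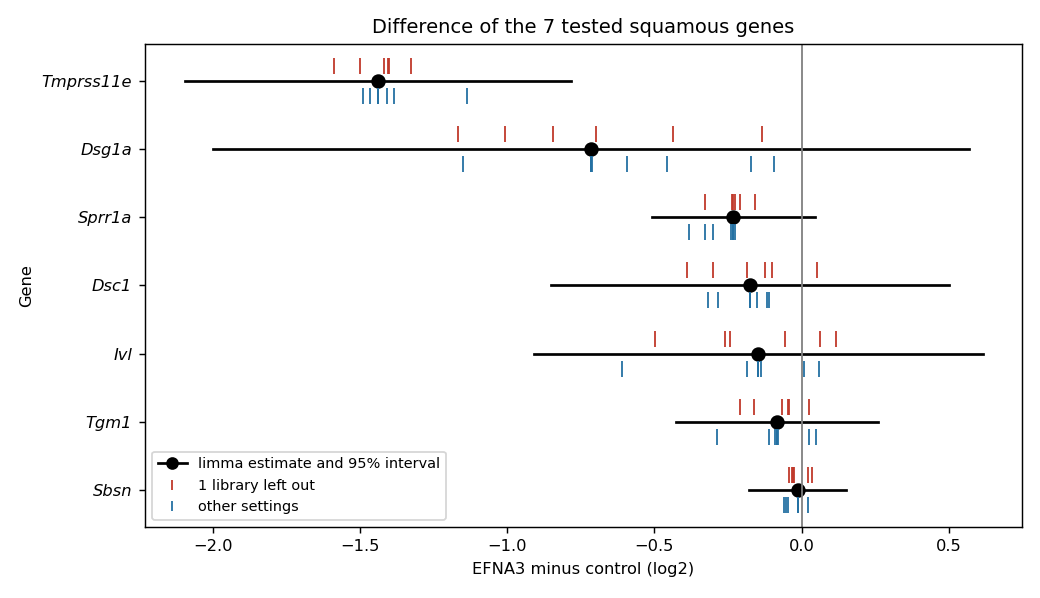
Log2 difference, EFNA3 minus control (horizontal axis), of the 7 tested squamous genes, with the limma estimate and its 95% interval in black, fits with 1 library left out as red ticks and other settings as blue ticks. The interval of Tmprss11e, -2.10 to -0.78, lies below 0, and those of the other 6 genes include 0.

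All 7 tested members had a lower mean in the EFNA3 group, against 49.2% of all tested genes. Their median log2 difference was -0.17, against 0.00 over all tested genes. The members were chosen with earlier results of these data known, so neither contrast is independent support. In 4 of the 7, Ivl, Sbsn, Tgm1 and Dsc1, the difference was smaller than the SD of the controls, and the members are not replicates of the treatment. Leaving out control replicate 1 gave a median of -0.05, control replicate 2 a median of -0.33 and EFNA3 replicate 1 a median of -0.13. Ivl, Sbsn, Tgm1 and Dsc1 changed sign when at least 1 library was left out; Sprr1a, Dsg1a and Tmprss11e did not.

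The spread between the control libraries varied among these genes. The median control SD was 0.27 over the 7 tested members and 0.10 over all tested genes. Among the 7 tested members it ran from 0.06 in Sbsn to 0.63 in Ivl. The members too low to test, Tgm3 and Sprr1b, had control SDs of 1.01 and 0.34. The 2 medians were not matched for level, and Ivl, Dsg1a, Dsc1 and Tmprss11e had control means below 6. A control SD at least as large as that of Ivl was found in 4.41% of tested genes. For Sprr1a the share was 31.1%, for Tgm1 38.9% and for Sbsn 75.0%. Dsg1a, Dsc1 and Tmprss11e had control SDs of 0.57, 0.44 and 0.27. Control replicate 2 was the lowest control for 4 of the 9 genes, control replicate 3 for 3 and control replicate 1 for 2, so no control was low throughout. Control replicate 1 was the highest of all 6 libraries for 5 of the 9 genes, and EFNA3 replicate 1 the lowest for 3, Tgm1, Tgm3 and Dsg1a.

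EFNA3 replicate 1 stood apart over the whole table. Across tested genes, which are not independent replicates, its deviation from the 6-library mean had a Spearman correlation of -0.53 with transcript length, against 0.04 to 0.36 in the other libraries. The tested members' transcripts ran from 806 nt (Sprr1a) to 5686 nt (Dsg1a), and the part of length in their differences was not tested beyond the correction for length and GC share, under which the median was -0.19. Library depth is unknown, because the deposited columns share a single distribution with a median of 8.10.

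The luminal markers Krt8 and Epcam stood at 13.67 or higher in every library, and Elf5 at 12.50 or higher. Summed over 10 luminal markers, the log2 level was 16.72 to 16.78 in controls and 16.78 to 16.99 in EFNA3 libraries, just without overlap. Taken singly, Epcam, Cd24a, Krt19 and Krt7 lay higher with EFNA3 without overlap. Krt8, Krt18, Elf5, Kit, Cldn3 and Prom1 overlapped between groups, and the mean of Kit went down from 12.25 to 12.17. Basal markers ranged widely in the labelled luminal cells. The basal keratin gene Krt14 was at 16.21 or higher in every library and Trp63, which encodes the transcription factor p63, at 11.72 or higher. The contractile genes Tagln, Cnn1 and Myh11 had control means of 5.20, 2.68 and 2.65. Higher control means were found for Acta2 (7.77), Mylk (9.38), Lgr5 (11.21), Oxtr (13.44) and Krt5 (14.9). Mylk lay lower with EFNA3 without overlap, at 9.27 to 9.46 in controls and 8.44 to 9.21 in EFNA3 libraries. Myh11, too low to pass the filter, was barely apart, at 1.66 to 3.31 and 0.78 to 1.65. The other listed basal markers overlapped or touched between groups. The summed level of the 10 basal markers was 16.92 to 17.01 in controls and 17.01 to 17.07 in EFNA3 libraries, where the groups overlapped slightly.

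Of 12 listed symbols for epidermal keratinocytes, 6 were analysed, and their summed log2 level was 7.55 to 7.73 in controls and 7.74 to 8.08 in EFNA3 libraries, which did not overlap. Krt10 made up most of that sum, at 6.91 to 7.18 in controls and 7.21 to 7.68 in EFNA3 libraries. The others were low and overlapped between groups. The mean of Lor went from 3.66 to 4.03, while 4 of the 6 had a lower EFNA3 mean: Krt1 went from 3.77 to 3.75, Krt77 from 3.20 to 2.96, Casp14 from 4.37 to 4.18 and Klk7 from 3.63 to 3.00. The summed level of 7 analysed hair follicle and sebocyte markers was 14.61 to 14.63 in controls and 14.63 to 14.85 in EFNA3 libraries, apart by less than these digits show. Mgst1 and Sox9 made up most of that sum, with means going from 13.78 to 13.94 and from 13.38 to 13.39. The mean of Krt71 went from 7.75 to 7.79, Awat2 from 6.27 to 6.28 and Scd3 from 7.05 to 6.77. Krt27 and Mc5r, too low to test, went from 2.09 to 3.34 and from 2.64 to 2.82. The part of these markers in the member differences was not tested.

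Other genes of cornification were followed in lists taken from general knowledge of the epidermis. None of their members passed limma over all tested genes, in either direction. In the list of other envelope precursors and scaffold proteins, 9 genes were tested, 5 lower and 4 higher, with a median log2 difference of -0.04. Cysrt1, a cysteine-rich envelope protein gene, differed by -0.49 (SE 0.33). Lor, which encodes the main precursor of the epidermal envelope, differed by 0.38 (SE 0.39). The corneodesmosin gene Cdsn differed by -0.16 (SE 0.14) and the matrix protein gene Ecm1 by 0.16 (SE 0.09). Without EFNA3 replicate 1 Lor stood at 0.20 and Cdsn at -0.03. All 4 genes overlapped between groups. The scaffold genes envoplakin (Evpl) and periplakin (Ppl), named after their values were seen, stood at 8.84 and 10.84 in controls and at 8.80 and 10.76 with EFNA3.

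Of 3 other transglutaminases tested, Tgm2, the widely expressed tissue enzyme, had the clearest separation. It went from 11.22 ± 0.08 to 11.04 ± 0.07 (log2, SD, n = 3), with no overlap between groups, a difference of -0.18 (SE 0.07; limma adjusted p = 0.55). Tgm5 differed by 0.05 (SE 0.11) and Tgm4 by 0.02 (SE 0.29), or by 0.17 and 0.08 without EFNA3 replicate 1.

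Among 23 epidermal proteases and inhibitors tested, 8 were lower and 15 higher, with a median of 0.04. The kallikrein gene Klk9 was another low protease gene below all controls, going from 4.62 ± 0.11 to 3.71 ± 0.43 (log2, SD, n = 3), a difference of -0.91 (SE 0.32; limma adjusted p = 0.55). The secreted inhibitor genes Wfdc12 and Slpi lay above all controls, with differences in group mean of 0.44 (SE 0.15) and 0.25 (SE 0.12). Spint2, a membrane-bound inhibitor of serine proteases, differed by 0.21 (SE 0.11). Without EFNA3 replicate 1 these were 0.28, 0.10 and 0.08.

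Among 13 other desmosome genes tested, 9 were lower and 4 higher, with a median of -0.09 that was 0.02 without EFNA3 replicate 1. Dsg2, the desmoglein of simple epithelium, differed by -0.28 (SE 0.15), Dsc2 by -0.13 (SE 0.12) and the desmoplakin gene Dsp by -0.21 (SE 0.17). Without that library these were -0.08, 0.02 and 0.02. Perp, a desmosomal membrane protein gene, lay above all controls with a difference of 0.23 (SE 0.08; limma adjusted p = 0.55), or 0.17 without it.

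Barrier lipid genes were evenly divided, with 9 of 18 lower and a median of -0.00. Fa2h, which hydroxylates fatty acids, lay below all controls at -0.34 (SE 0.09) and Lipm, a lipase gene, above them at 0.65 (SE 0.35), or 0.40 without EFNA3 replicate 1. Sult2b1, the cholesterol sulfotransferase, also lay above them at 0.17 (SE 0.11), and the elongase gene Elovl4 differed by -0.17 (SE 0.10). Of 15 keratins of stratified epithelium, 12 had a higher mean, with a median of 0.12. Krt10, the keratin of suprabasal epidermis, and Krt17 lay narrowly above all controls. Their differences in group mean were 0.37 (SE 0.17) and 0.23 (SE 0.11), or 0.21 and 0.10 without EFNA3 replicate 1. Krt15 differed by 0.21 (SE 0.09), and Krt79 lay below all controls at -0.25 (SE 0.08).

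Transcription factors of keratinocyte differentiation, 34 tested, had 19 higher and 15 lower means and a median of 0.03. Klf4, a factor needed for the skin barrier, went from 8.83 ± 0.10 to 9.07 ± 0.11 (log2, SD, n = 3), above all controls, a difference of 0.24 (SE 0.10; limma adjusted p = 0.55). It was 0.30 without EFNA3 replicate 1. Barx2 also lay above all controls at 0.27 (SE 0.10), Cebpb differed by 0.36 (SE 0.15) and Notch1, a receptor listed with them, lay below all controls at -0.36 (SE 0.17). Without EFNA3 replicate 1 these were 0.17, 0.19 and -0.13.

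**Figure D4:**
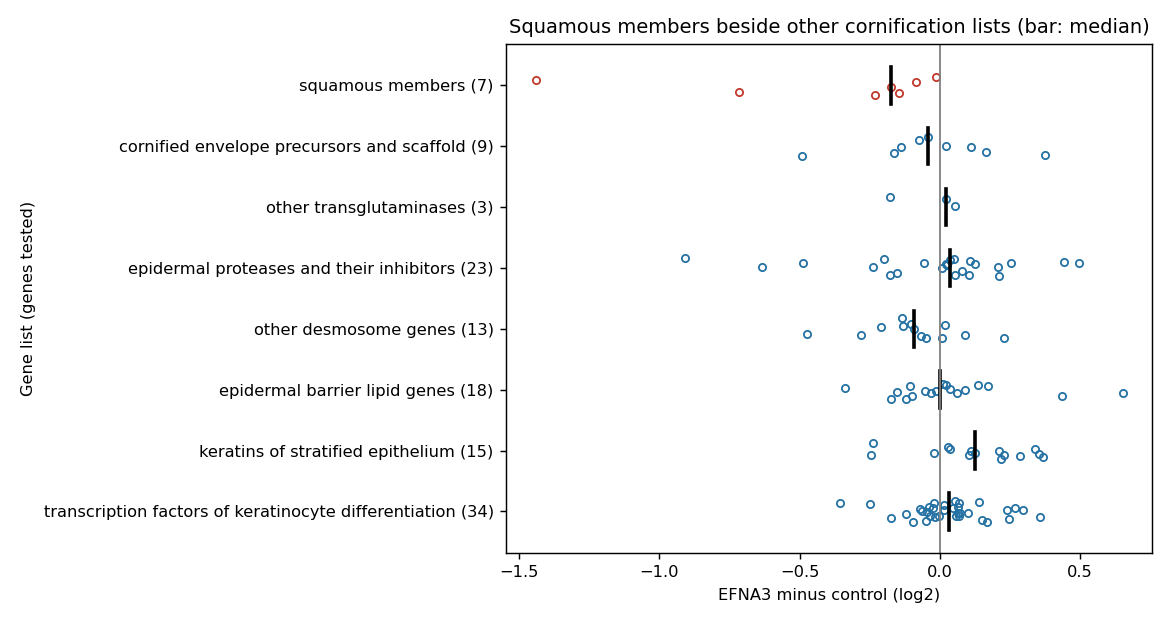
Log2 difference, EFNA3 minus control (horizontal axis), of each tested gene in the squamous set (red) and in 7 other cornification lists (blue), with a black bar at each list's median and the number of tested genes in parentheses. The medians run from -0.17 in the squamous set to 0.12 in the keratins.

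Genes whose pattern over the 6 libraries was most like the mean of the tested members were Fzd4, Rtl3, Napb, Reep6 and Crat. Their root-mean-square distance from that mean pattern was 0.06 to 0.08 on the log2 scale over 6 libraries, the smallest among 11654 candidate genes. No member lay as close to it: the members' own distances ran from 0.17 (Sprr1a) to 0.60 (Tmprss11e), so the mean pattern describes none of them well. In this pattern control replicate 1 was highest, at 0.40 above the 6-library mean, and EFNA3 replicate 1 lowest, at -0.40. Fzd4, which encodes a Wnt receptor, differed by -0.37 (SE 0.12; limma adjusted p = 0.55).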

How the data were processed

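Expression was measured by RNA sequencing in 6 libraries, 3 per group, grouped by the titles in the labels. Trim Galore, Subread and featureCounts and the build mm39 are named in the submitters' processing notes; no versions, annotation or strand setting were stated there. The authors deposited log2 values (the base is inferred from their range, -0.79 to 18.11); their sorted columns differed by at most 0.00302, as after quantile normalization. Depth is therefore unknown, counting intervals are not given, and a common shift of expression would not show.

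Genes with at least 10 on the linear scale (3.32 in log2) in at least 3 of 6 libraries were fitted together with limma 3.58.1 in R 4.3.3, with a mean-variance trend, no block, no pseudocount and Benjamini-Hochberg adjustment over 16394 genes. The fit was tested on simulated data with independent noise for each gene. Those data held no library-wide shift such as that of EFNA3 replicate 1. Transcript length and GC share came from the longest coding transcript in GENCODE, by symbol, for 97.4% of tested genes. The members and lists were chosen with earlier results of these data known. Named genes were all members, up to 4 genes of each list by smallest unadjusted p, and the 5 nearest in pattern. Alternatives covered the filter, a pseudocount of 5, cyclic loess, the variance trend, library weights, replicate blocks, each library left out and, added after seeing the data, a spline correction for length and GC share.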

Additional observations from a re-analysis of the deposited data

How the results depend on the processing

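No member passed limma over all tested genes under any of the 16 alternatives, with the smallest adjusted p of a member between 0.33 and 0.84. Over all genes the count stayed at 0 except with a replicate block that followed the description numbers, where it was 71, none of them a member. That block left 1 library of each group (replicate 2) unmatched, so its differences rested on replicates 1 and 3 of each group. Little was left to estimate the spread, so the count of 71 is not comparable with the fits that used all 6 libraries. The median difference of the members with that block was -0.33. With a replicate block that followed the title numbers 0 genes were called. The labels state no pairing by these numbers. Deviations from the group means of libraries with the same title number correlated at -0.11, 0.03 and -0.32 for numbers 1, 2 and 3. Only EFNA3 replicate 2, of the 6 libraries, correlated best with its own number in the other group. Deviations within a group are tied to each other, so these correlations do not settle whether libraries were paired. Genes at an unadjusted limma p under 0.05 numbered 1104 with all libraries and 494 to 2453 with 1 library left out. Without control replicates 1, 2 and 3 the counts were 552, 494 and 723. Without EFNA3 replicates 1, 2 and 3 they were 749, 1780 and 2453. With the length and GC correction without EFNA3 replicate 1 the count was 704. The members' median ran from -0.3286 to -0.0457 with 1 library left out.

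Tmprss11e, Sprr1a and Dsg1a stayed lower under every alternative that kept them; the stricter filter at 50 left out Tmprss11e, Dsg1a and Dsc1. Signs turned for the others. Leaving out 1 library gave ranges of -0.4985 to 0.1160 for Ivl, -0.0412 to 0.0343 for Sbsn, -0.2089 to 0.0267 for Tgm1 and -0.3908 to 0.0509 for Dsc1. With library weights Ivl was 0.0099 and Tgm1 0.0487, and with the block by descriptions Sbsn was 0.0204. With the length and GC correction without EFNA3 replicate 1, Ivl was 0.0579 and Tgm1 0.0269. The cause of these shifts was not tested.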
